A study of Mus musculus with 11 samples.

Results

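Wnt signalling was described in the hypothalamus through 10 genes of the pathway, which were the 10 of 14864 gene rows in the deposited table with the symbols Wnt5a, Wnt7a, Wnt7b, Fzd1, Fzd7, Lrp5, Lrp6, Axin2, Ctnnb1 and Dkk3. All 10 symbols were found, and 9 of these genes passed the filter on low levels and were tested. Wnt proteins are secreted, lipid-modified ligands that bind Frizzled receptors, and the coreceptors Lrp5 and Lrp6 join them in the canonical branch. Without a ligand, a complex of Axin, APC and the kinase GSK3 marks beta-catenin for degradation. With one, beta-catenin accumulates and works with TCF/LEF factors in the nucleus to switch on target genes, of which Axin2 is a feedback inhibitor. In the brain the pathway patterns the embryo, takes part in synapse formation and, through Wnt7a and Wnt7b, in the growth of brain vessels.

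RNA was sequenced from the hypothalamus of mice aged 60 to 70 postnatal days. The WT group held 2 females and 3 males, and the Het group 3 females and 3 males. The sample labels give only WT or Het as the genotype, and the title of the series names the loss of MYT1L, a zinc finger transcription factor of neurons, so Het was read as heterozygous for Myt1l. The labels name no allele, strain or treatment. The design text calls the libraries biological replicates, without saying whether each is a separate animal.

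Corrected counts summed to 22921048 to 24941704 per library. Myt1l did not separate the groups: it was at 76.3 ± 15.9 CPM (read counts scaled to library size; SD, n = 5) in WT and 76.3 ± 26.9 CPM (SD, n = 6) in Het, a log2 difference of -0.01. A two-sided exact permutation test within sex gave p = 0.97, and its 200 arrangements can reach 0.005 at the lowest. The library labelled WT replicate 11 had the lowest Myt1l level of all, 51.1 CPM, and the library labelled Het replicate 9 the highest, 130 CPM. Both went against their labels. With both left out, the WT level of Myt1l was 82.6 ± 8.46 CPM (SD, n = 4) and the Het level was 65.6 ± 6.27 CPM (SD, n = 5). Het minus WT was then -0.32 on the log2 scale (limma adjusted p = 0.0679). Because the 2 libraries were picked by these same Myt1l values, this difference cannot serve as a test of Myt1l. Of the hypothalamic markers, including Hcrt, Pmch, Avp and Oxt, 15 of 15 were in the table, with none at 0 in any library.

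None of the 9 tested genes passed the test for a difference between the genotypes. Over all genes, 453 of 13184 passed an adjusted p of 0.05 (limma, Benjamini-Hochberg), which is 3.44%, with 2.3% higher and 1.14% lower in Het, against 0 of the 9 in either direction. At an unadjusted p of 0.05, 0 of the 9 passed, against 22.3% of all genes. The ranges of WT and Het values overlapped for all 10 genes, while 3.35% of all tested genes had ranges that did not overlap. The 9 log2 differences (Het minus WT) ran from -0.18 to 0.18 with a median of -0.06, and the median over all tested genes was -0.02. Without WT replicate 11 and Het replicate 9, 1.74% of all genes passed and again 0 of the 9, with a median of 0.01. The deposited values had been corrected for residual variation, which makes p-values too small and intervals too narrow. The exact amount is not known, but taking off 1 residual degree of freedom, for the 1 direction removed, gives an estimate. Under that setting 0 of the 9 passed and fewer of all genes did. In bulk tissue, fewer cells of a type and less RNA per cell cannot be told apart.

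**Figure D1:**
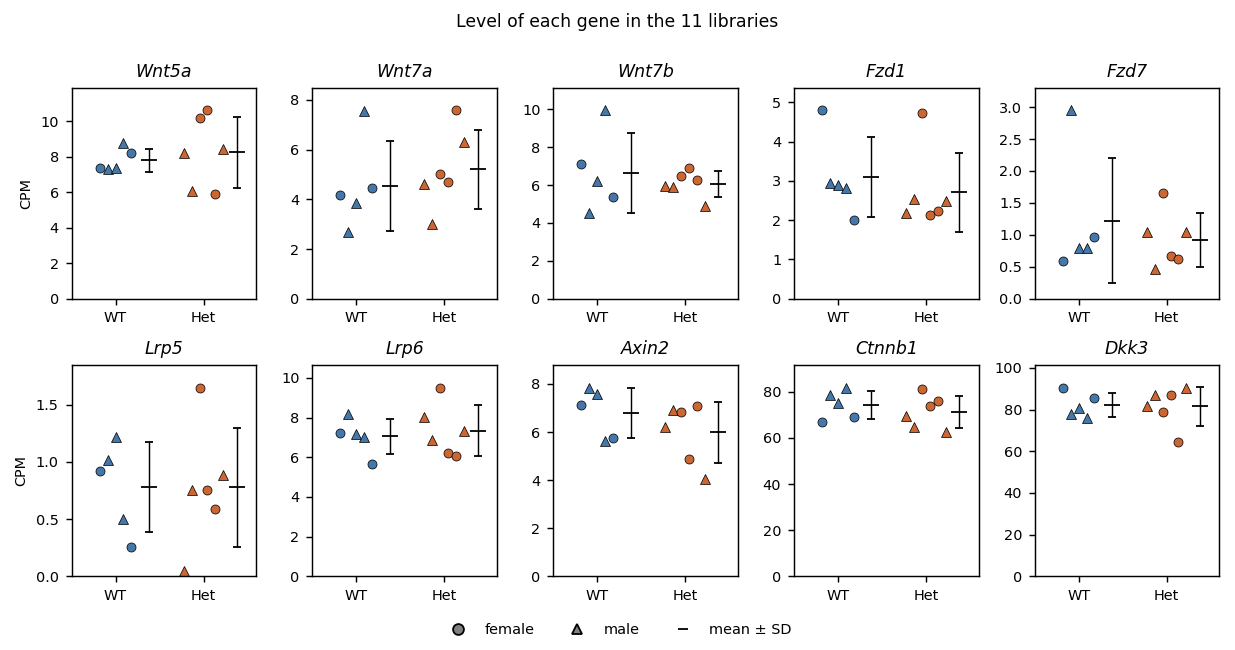
Level of each of the 10 genes in CPM (vertical axis, starting at 0) in 5 WT and 6 Het libraries, circles for females and triangles for males, with the mean ± SD beside each group. The groups overlap in every panel, and single high points stand out for Fzd7 in WT (2.95 CPM) and Fzd1 in Het (4.73 CPM).

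Per length of exon, Dkk3 was the highest and Lrp5 the lowest of the set. Levels were divided by the merged exon length of each gene, so that genes could be ordered in CPM per kb. Dkk3 was highest at 24.4 ± 2.25 CPM per kb (SD over 11 libraries) and Ctnnb1, which encodes beta-catenin, followed at 14.0 ± 1.26. These ranges did not overlap each other or that of the next gene. Wnt7a at 1.55 ± 0.515, Wnt7b at 1.29 ± 0.294, Axin2 at 1.15 ± 0.215 and Wnt5a at 1.03 ± 0.189 CPM per kb formed a middle tier in which each gene's range overlapped that of its neighbour. Fzd1 at 0.688 ± 0.234, Lrp6 at 0.527 ± 0.079, Fzd7 at 0.233 ± 0.156 and Lrp5 at 0.0800 ± 0.0455 CPM per kb were lowest, and here too neighbouring ranges overlapped. The effector and the Dkk family member were thus far above the ligands and receptors of the set. Ligands and receptors outside the set were not ordered in this way.

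Promoter sequence is shown for the feedback gene Axin2 and for the receptor gene Fzd1, because TCF/LEF factors bind a short core, CTTTGA, and Fzd1 was the 1 gene of the set with a match to it. Windows were available for Axin2, Ctnnb1, Fzd1, Fzd7 and Wnt7a in the RefSeq table of build GRCm38.p6, and the 250 bases before each start site were searched on both strands. Among all 32851 windows, 13.8% held the core, against 1 of 6 windows of these 5 genes. The windows are Axin2 at chr11:108920099-108920348 on the plus strand and Fzd1 at chr5:4758217-4758466 on the minus strand, both written 5′ to 3′ along the gene, with the core (or its reverse complement TCAAAG) in capitals.
Axin2: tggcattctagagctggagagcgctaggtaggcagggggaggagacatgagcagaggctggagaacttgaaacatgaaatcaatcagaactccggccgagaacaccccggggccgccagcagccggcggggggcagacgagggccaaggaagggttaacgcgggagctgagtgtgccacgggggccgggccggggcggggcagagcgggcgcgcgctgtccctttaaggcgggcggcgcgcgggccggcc
Fzd1: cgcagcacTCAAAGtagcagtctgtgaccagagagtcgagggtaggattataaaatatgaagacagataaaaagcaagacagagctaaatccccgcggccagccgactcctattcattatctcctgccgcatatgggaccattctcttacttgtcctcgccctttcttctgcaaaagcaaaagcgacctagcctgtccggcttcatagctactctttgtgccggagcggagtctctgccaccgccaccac
The Fzd1 match lies at position -242 relative to the RefSeq start site, on the strand opposite to the gene. By the gene coordinates given below, Fzd1 starts at 4758035, downstream of that site, so the match lies farther from this start. No match in the Axin2 window says only that these letters are not within its 250 bases. The windows differ in base composition, with 69.2% G and C for Axin2 and 51.2% for Fzd1, where the median of all windows is 52.4%.

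Among the ligands, Wnt5a, which mostly signals through branches that do not need beta-catenin (ENSMUSG00000021994, mm10 chromosome 14 from 28504750 to 28527448), was at 7.30, 7.35, 8.18, 7.34 and 8.74 CPM in WT replicates 3, 4, 6, 7 and 11. In Het it ran from 5.91 CPM over a median of 8.33 to 10.6 CPM. All 5 WT values lay inside the Het range. The log2 difference was 0.04 (SE 0.16, 95% confidence interval -0.29 to 0.37, limma adjusted p = 0.912). Without the libraries labelled WT replicate 11 and Het replicate 9 it was 0.06.

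Wnt7a, a ligand of synapse formation and vessel growth (ENSMUSG00000030093, chromosome 6 from 91363981 to 91411363), was at 2.70, 4.17, 4.45, 3.86 and 7.56 CPM in WT replicates 3, 4, 6, 7 and 11. In Het the lowest, median and highest values were 2.99, 4.86 and 7.59 CPM. The single high WT value belonged to replicate 11, 1 of the 2 libraries in doubt. The log2 difference of 0.18 (SE 0.23, interval -0.32 to 0.67, limma adjusted p = 0.694) became 0.27 without those 2 libraries (limma adjusted p = 0.44). Leaving out 1 library moved it between 0.05 (without WT replicate 3) and 0.38 (without WT replicate 11).

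Wnt7b, its close relative with a similar role (ENSMUSG00000022382, chromosome 15 from 85535437 to 85582473), was at 4.51, 7.14, 5.37, 6.21 and 9.96 CPM in WT replicates 3, 4, 6, 7 and 11. Het libraries ran from 4.91 over 6.12 to 6.92 CPM, a narrow range inside that of WT. WT replicate 11 was again the highest WT library, and the WT mean was 6.64 ± 2.10 CPM with it (SD, n = 5) and 5.81 ± 1.13 CPM without it (SD, n = 4). Het minus WT came to -0.09 (SE 0.17, limma adjusted p = 0.807), and without both libraries in doubt its sign turned, to 0.11. The exons of Wnt7b overlap AU022754 on the opposite strand over 324 bases, and those of Wnt5a overlap Gm2670 over 358 bases. The sources used here do not say whether reads were counted by strand, so part of these counts is uncertain.

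Both Frizzled receptors of the set were low. Fzd1, a receptor of the canonical branch (ENSMUSG00000044674, chromosome 5 from 4753839 to 4758035), was at 2.95, 4.8, 2.01, 2.89 and 2.82 CPM in WT replicates 3, 4, 6, 7 and 11. In Het the lowest was 2.14, the median 2.35 and the highest 4.73 CPM. The high values were those of the females WT replicate 4 and Het replicate 2. The other 5 Het libraries lay close together, at 2.31 ± 0.179 CPM (SD). On the log2 scale the difference was -0.18 (SE 0.22, interval -0.65 to 0.29, limma adjusted p = 0.67), -0.32 with Het replicate 2 left out, -0.01 with WT replicate 4 left out and -0.19 with both libraries in doubt left out.

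Fzd7, a receptor known from stem and progenitor cells (ENSMUSG00000041075, chromosome 1 from 59482424 to 59486955), was at 2.95, 0.584, 0.965, 0.797 and 0.798 CPM in WT replicates 3, 4, 6, 7 and 11. Values in Het ran from 0.463 over 0.860 to 1.65 CPM. WT replicate 3 stood at over 3 times any other WT library, and without it the WT mean was 0.786 ± 0.156 CPM (SD, n = 4), below the Het mean of 0.918 ± 0.429 CPM (SD, n = 6). With it, the log2 difference was -0.17 (SE 0.31, interval -0.83 to 0.48, limma adjusted p = 0.785). Without that library the sign turned, to 0.10. Without the 2 libraries in doubt the difference was -0.27. Fzd7 rested on 11 to 70 corrected counts per library, so only large changes could be seen.

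The coreceptors Lrp5 and Lrp6 are single-pass membrane proteins that carry the canonical signal with Frizzled. Lrp6 (ENSMUSG00000030201, chromosome 6 from 134446476 to 134566965) was at 8.18, 7.22, 5.67, 7.17 and 7.02 CPM in WT replicates 3, 4, 6, 7 and 11. In Het it ran from 6.08 over 7.08 to 9.51 CPM, and the groups covered nearly the same range. Its log2 difference was 0.06 (SE 0.14, interval -0.24 to 0.35, limma adjusted p = 0.847), also 0.06 without the 2 libraries in doubt. Lrp5 (ENSMUSG00000024913, chromosome 19 from 3584828 to 3686564) had a mean of 0.779 CPM over all libraries, under the filter of 1 CPM, and was not among the tested genes. It was at 1.01, 0.918, 0.252, 1.22 and 0.504 CPM in WT replicates 3, 4, 6, 7 and 11, and from 0.0419 over 0.756 to 1.65 CPM in Het. The lowest value stood for 1 corrected count and the highest for 39. With no filter its log2 difference was -0.06 (SE 0.31, limma adjusted p = 0.931), and group means without the 2 libraries in doubt were 0.850 ± 0.418 and 0.758 ± 0.577 CPM (SD, n = 4 and 5). In Het, the same library, replicate 2, was the highest for all 4 receptor genes.

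Axin2, a scaffold of the destruction complex whose transcription reports canonical signalling (ENSMUSG00000000142, chromosome 11 from 108920349 to 108950783), was at 7.84, 7.14, 5.75, 7.59 and 5.63 CPM in WT replicates 3, 4, 6, 7 and 11. In Het it was at 6.84, 4.87, 7.09, 6.20, 6.90 and 4.03 CPM in replicates 2, 4, 7, 5, 8 and 9. The lowest 2 values were Het, while the other 4 Het libraries sat inside the WT range. The log2 difference was -0.18 (SE 0.17, interval -0.53 to 0.17, limma adjusted p = 0.542), the smallest p of the set. Without WT replicate 11 and Het replicate 9 it was -0.13 (limma adjusted p = 0.668), and with 1 library left out it lay between -0.26 (without WT replicate 6) and -0.06 (without Het replicate 9). Gm11670 overlaps its exons on the opposite strand over 209 bases.

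Dkk3, a secreted glycoprotein of the Dickkopf family whose effect on Wnt signalling is less settled than that of its relatives (ENSMUSG00000030772, chromosome 7 from 112116017 to 112159057), was at 77.9, 90.5, 85.7, 80.7 and 76.1 CPM in WT replicates 3, 4, 6, 7 and 11. Het libraries ran from 64.5 over 84.3 to 90.2 CPM, with the lowest value in replicate 7. The groups lay on top of each other, at 82.2 ± 5.91 CPM (SD, n = 5) and 81.6 ± 9.31 CPM (SD, n = 6). Het minus WT came to -0.01 (SE 0.08, interval -0.19 to 0.16, limma adjusted p = 0.938). Without the 2 libraries in doubt it was -0.07. Dkk3 and Ctnnb1 varied least of the set, with a coefficient of variation over all libraries of 9.25% and 9.00%, against 67.0% for Fzd7.

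Ctnnb1, the gene of beta-catenin, which also holds cadherins to the cytoskeleton (ENSMUSG00000006932, chromosome 9 from 120929216 to 120960507), did not pass the genotype test over both sexes, at 74.2 ± 6.23 CPM (SD, n = 5) in WT and 71.3 ± 7.05 CPM (SD, n = 6) in Het. On the log2 scale the difference was -0.06 (SE 0.08, interval -0.23 to 0.10, limma adjusted p = 0.676), and 0.01 without the 2 libraries in doubt. Within each sex the libraries separated, in opposite directions. In females it was at 66.9 and 69.1 CPM in WT replicates 4 and 6, and at 81.0, 74.0 and 76.1 CPM in Het replicates 2, 4 and 7. In males it was at 78.5, 74.9 and 81.8 CPM in WT replicates 3, 7 and 11, and at 69.3, 64.9 and 62.5 CPM in Het replicates 5, 8 and 9.

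Every Het female was thus above both WT females, and every Het male below all 3 WT males. The highest and lowest of these males were WT replicate 11 (81.8 CPM) and Het replicate 9 (62.5 CPM), the 2 libraries in doubt. The fitted log2 difference was 0.18 in females (SE 0.09) and -0.26 in males (SE 0.08), and the difference between the sexes was 0.43 (SE 0.12, interval 0.18 to 0.69). It did not pass adjustment over all genes (limma adjusted p = 0.982). This pattern, separation in opposite directions in the sexes, was met by 0.758% of all tested genes. Without the 2 libraries in doubt the difference between the sexes was 0.37 (SE 0.13, limma adjusted p = 0.808). Exons of Ulk4 on the opposite strand cover 759 bases, or 14.6%, of Ctnnb1 exons.

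**Figure D2:**
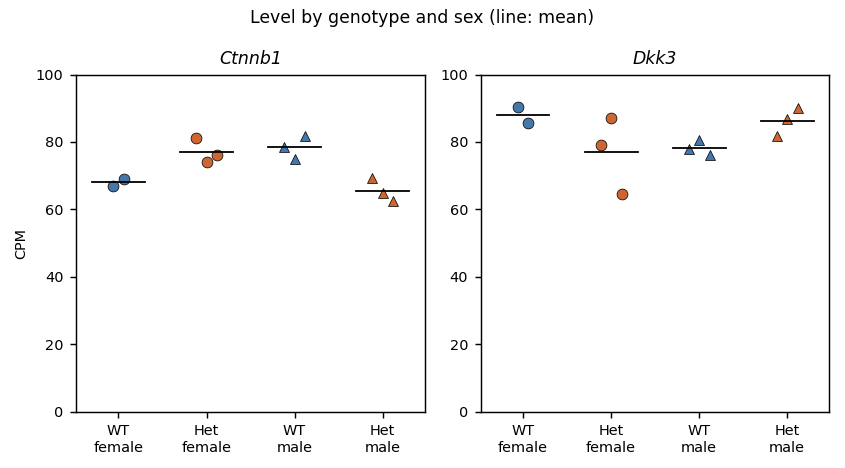
Level of Ctnnb1 and Dkk3 in CPM (vertical axis, starting at 0) by sex and genotype, 1 point per library, with a line at each mean. Ctnnb1 means are 68.0, 77.1, 78.4 and 65.6 CPM from left to right, without overlap between genotypes in either sex, and Dkk3 means are 88.1, 76.9, 78.2 and 86.3 CPM.

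Of the other genes, Dkk3 also had a genotype by sex difference at an unadjusted p of 0.05, with the opposite sign, -0.35 (SE 0.15, limma adjusted p = 0.982). Dkk3 averaged 88.1 CPM in WT and 76.9 CPM in Het females, and 78.2 CPM in WT and 86.3 CPM in Het males. Female values overlapped, while male values did not (76.1 to 80.7 CPM in WT, 81.7 to 90.2 CPM in Het). The lowest and highest of these males were WT replicate 11 and Het replicate 9, the 2 libraries in doubt. In all, 0 of the 9 passed the adjusted threshold for the difference between sexes in the genotype effect, 2 passed unadjusted, and among all genes 0% passed adjusted and 4.65% unadjusted. For females against males, 0 of the 9 passed, against 0.197% of all genes, and at an unadjusted p of 0.05 it was 0 of the 9 against 12.2% of all genes. The 9 sex differences (female minus male) ran from -0.17 for Fzd7 to 0.17 for Wnt7a on the log2 scale.

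Pairs of the 9 genes were correlated across the 11 libraries. Among their 36 pairs, r ran from -0.67 to 0.65 on log2 values. Fzd1 and Lrp6 had the highest (r 0.65, rho 0.64, permutation p = 0.0308 and 0.0401, adjusted over the pairs 0.554 and 0.361), with r 0.63 without the 2 libraries farthest from the Fzd1 median. Ctnnb1 and Dkk3 had the lowest (r -0.67, rho -0.85, permutation p = 0.018 and 0.00186, adjusted 0.554 and 0.067, r -0.57 without the 2 farthest). With the mean of each sex and genotype taken out, r was -0.37 for Ctnnb1 and Dkk3 and 0.85 for Fzd1 and Lrp6. No pair passed the adjusted threshold. Wnt7a and Wnt7b had r 0.51 and rho 0.44 (permutation p = 0.106 and 0.182, adjusted 0.645 and 0.774, r 0.41 without the 2 farthest).

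As a description over 11 libraries, the genes most like each member were found by the highest r among all tested genes. For Axin2 these were Vdac3 (r 0.94) and Ipo5 (r 0.93), for Ctnnb1 Mipep (r 0.93) and Lonp1 (r 0.92), and for Wnt7b Stx6 and Ypel1 (both r 0.95). For Wnt7a they were Zfp423 and Slc18a3 (both r 0.88), for Wnt5a Glis2 (r 0.92) and Ifi35 (r 0.91), and for Lrp6 Rnf144b (r 0.94) and Lims1 (r 0.92). For Fzd1 they were Birc3 and Mdh1b (both r 0.89), for Fzd7 Ptn (r 0.92) and Sbds (r 0.90), and for Dkk3 Neil1 and Speg (both r 0.89). None of these genes is a listed gene of the pathway, and listed genes are few among those searched. Each r was picked as the highest among 13184 tested genes over only 11 libraries. Such selection alone can give high values, so these pairs are no evidence of shared regulation.

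Elsewhere in the pathway 4 genes rose in Het and none fell. Another 90 pathway genes were in the table, of which 76 were tested, so that 5.26% passed, against 3.44% of all genes. The median of the 76 was 0.05, against -0.02 over all genes, and 46 of them had a positive difference. The 4 were Celsr2, Gsk3b, Tcf7l2 and Fzd3. Celsr2 and Gsk3b also passed without the 2 libraries in doubt, where Tcf7l2 and Fzd3 did not.

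**Figure D3:**
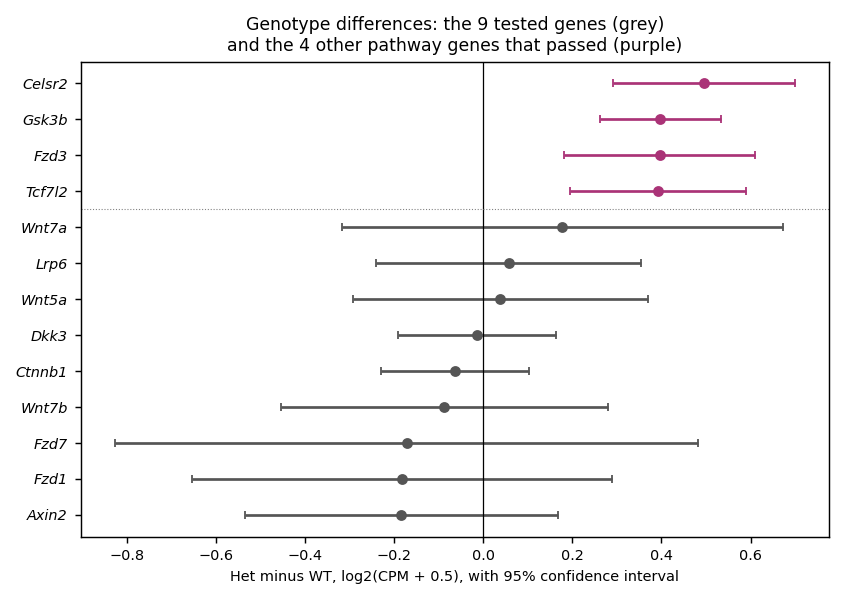
Het minus WT on the log2(CPM + 0.5) scale with the 95% confidence interval (horizontal axis) for the 9 tested genes of the set in grey and for the 4 other pathway genes that passed in purple. The 9 grey intervals include 0, and the 4 purple ones lie above it, between 0.18 and 0.70.

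Gsk3b, the kinase that phosphorylates beta-catenin in the destruction complex (ENSMUSG00000022812, chromosome 16 from 38089001 to 38246084), was at 225, 195, 221, 225 and 205 CPM in WT replicates 3, 4, 6, 7 and 11. Values in Het ran from 245 over 271 to 324 CPM, so that all 6 Het libraries were above all 5 WT libraries. The log2 difference was 0.40 (SE 0.06, limma adjusted p = 0.00641), 0.31 in females and 0.46 in males, and 0.35 without the 2 libraries in doubt (limma adjusted p = 0.0323). It passed whichever single library was left out.

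Celsr2, an atypical cadherin of planar cell polarity (ENSMUSG00000068740, chromosome 3 from 108390851 to 108415552), was at 14.0, 18.3, 16.7, 15.9 and 17.7 CPM in WT replicates 3, 4, 6, 7 and 11. In Het it ran from 20.3 over 23.6 to 26.5 CPM, again with no overlap. Het minus WT came to 0.50 (SE 0.10, limma adjusted p = 0.0126), 0.33 in females and 0.63 in males, and 0.52 without the 2 libraries in doubt (limma adjusted p = 0.0385). It also passed in each of the 11 runs that left out 1 library.

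Tcf7l2, a TCF factor that binds DNA with beta-catenin and also marks the thalamus (ENSMUSG00000024985, chromosome 19 from 55741820 to 55933654), was at 43.9, 46.5, 47.4, 41.1 and 46.3 CPM in WT replicates 3, 4, 6, 7 and 11. Het libraries ran from 49.2 over 60.1 to 74.7 CPM, above every WT library. On the log2 scale the difference was 0.39 (SE 0.09, limma adjusted p = 0.0327), 0.17 in females and 0.57 in males. It did not pass without WT replicate 7 (limma adjusted p = 0.0795) or Het replicates 5 (0.0661), 7 (0.0542), 8 (0.0626) or 9 (0.074), nor without both libraries in doubt (0.33, limma adjusted p = 0.082).

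Fzd3, a Frizzled receptor of axon guidance and planar polarity (ENSMUSG00000007989, chromosome 14 from 65192449 to 65262463), was at 24.8, 19.5, 21.8, 19.96 and 17.5 CPM in WT replicates 3, 4, 6, 7 and 11. Values in Het ran from 23.6 over 27.6 to 31.1 CPM, and WT replicate 3 lay inside that range. The log2 difference was 0.40 (SE 0.10, limma adjusted p = 0.0414), 0.41 in females and 0.38 in males. It passed in only 2 of the 11 runs without 1 library, those without WT replicate 3 (limma adjusted p = 0.0117) and without Het replicate 5 (0.0421), and not without both libraries in doubt (0.30, limma adjusted p = 0.122). With 1 residual degree of freedom taken off for the correction, Gsk3b and Celsr2 passed, and Tcf7l2 and Fzd3 did not. When values were adjusted for the length and base composition of transcripts, none of the 4 passed, with Gsk3b at 0.25, Celsr2 at 0.30, Tcf7l2 at 0.37 and Fzd3 at 0.18.

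By role, the ligands held 5 tested genes beyond the set, of which none passed and 3 were positive, with a median of 0.04, or 0.30 without the 2 libraries in doubt. Those with the smallest p-values were Wnt3, at 9.36 ± 2.12 CPM in WT and 6.65 ± 1.79 CPM in Het (SD, log2 difference -0.42, limma adjusted p = 0.091), and Wnt6, at 3.84 ± 1.22 and 2.24 ± 1.5 CPM (-0.85, limma adjusted p = 0.0974). Wnt2, added after its values were seen, went the other way, at 7.86 ± 1.20 CPM in WT and 12.1 ± 4.22 CPM in Het (SD, 0.52, limma adjusted p = 0.14). The genes that lipidate and export Wnt proteins, Porcn and Wls, had differences of 0.04 and -0.05. Of 5 further tested Frizzled genes, Fzd3 rose and the other 4 did not pass, and the median was 0.21. Among 8 further coreceptors and alternative receptors none passed, and the smallest p-values were those of Kremen1, a Dickkopf receptor (0.43), and Ptk7, a pseudokinase of planar polarity (-0.37).

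R-spondins, which raise Wnt receptor levels at the cell surface, and Norrin, a Frizzled ligand, had negative differences in 5 of 5 genes, with a median of -0.12 and none passing, where 53.0% of all tested genes had a negative difference. Without the 2 libraries in doubt, 3 of the 5 were negative and the median was -0.07. Rspo1 was at -0.35 (limma adjusted p = 0.346) and Rspo3 at -0.26 (limma adjusted p = 0.469). By sex, Rspo3 was at 0.30 in females and -0.71 in males, and Rspo4 at 0.19 and -0.37. Rspo1, Rspo2 and the Norrin gene Ndp were negative in both sexes. Of 7 further secreted antagonists none passed, with Wif1, which binds Wnt proteins, at -0.39 (limma adjusted p = 0.134) and Sfrp5 at -0.22. Of 17 further genes of Dishevelled and the destruction complex, Gsk3b rose, 16 missed the threshold and the median was 0.09. Of 10 further genes of the TCF complex, Tcf7l2 rose, 9 missed the threshold and the median was 0.13.

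Of 10 further feedback and target genes none passed, 6 were positive and the median was 0.09. Those with the smallest p-values were Tcf7, itself a TCF factor (0.61, limma adjusted p = 0.224), and Nkd1, an inhibitor of Dishevelled (-0.44, limma adjusted p = 0.237). Planar polarity genes, which orient cells within a tissue, had 11 of 12 positive differences with a median of 0.16, where 53.0% of all tested genes were negative. Of the 12, 16.7% passed, against 3.44% of all genes, and Fzd3 is counted here as well as among the Frizzled genes. Celsr2 and Fzd3 rose and 10 did not pass, and without the 2 libraries in doubt 12 of 12 were positive and 1 passed. Neither Celsr2 nor Fzd3 passed after the adjustment for length and base composition.

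**Figure D4:**
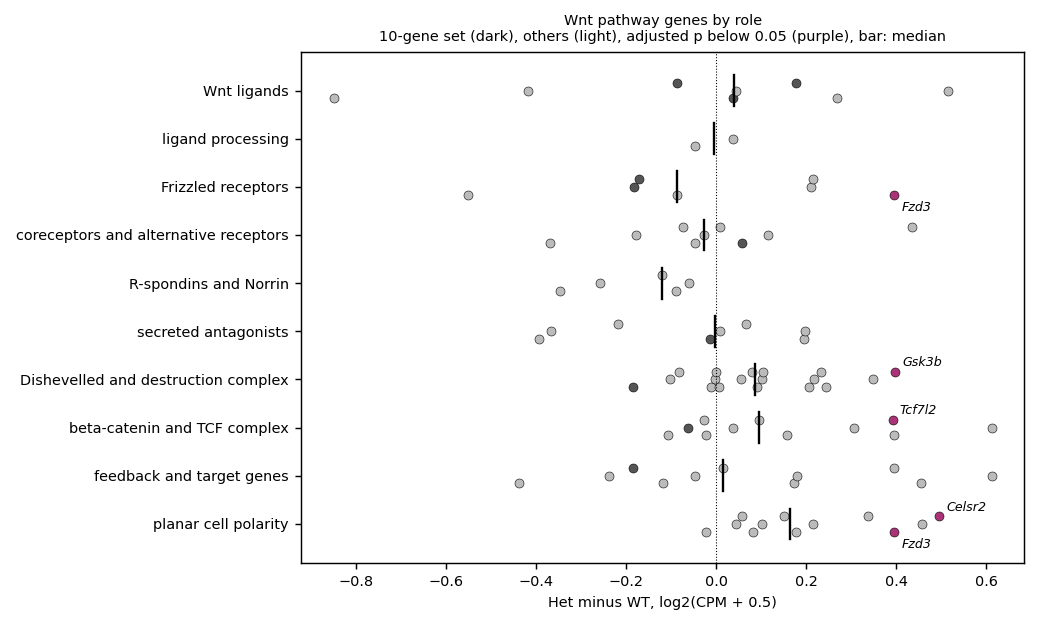
Het minus WT on the log2(CPM + 0.5) scale (horizontal axis) for every tested pathway gene by role (vertical axis), with the 10-gene set dark, other genes light, genes past the adjusted threshold purple, and a bar at each median. Medians, which here include the 10-gene set, run from -0.12 for R-spondins and Norrin to 0.16 for planar polarity genes, and Fzd3 appears under both of its roles.

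Markers of the hypothalamus and of a neighbouring region moved with genotype as well. The marker lists were chosen with earlier results of these data known. Over all tested genes, 2.3% rose in Het, 1.14% fell and 53.0% had a negative difference. Striatal markers had a positive difference in 15 of 15 genes, 7 of which rose, with a median of 0.46 and a summed level of 1848 to 2339 CPM in WT and 2095 to 3828 CPM in Het, and the count of 7 was the same without the 2 libraries in doubt. Hypothalamic markers had a negative difference in 14 of 15, 5 of which fell, and summed to 3149 to 4092 CPM in WT and 2157 to 3467 CPM in Het. Without the 2 libraries in doubt, 12 of the 15 were negative and 3 fell. Thalamic markers, a list that includes Tcf7l2 and Lef1, summed to 840 to 971 CPM in WT and 784 to 983 CPM in Het, with 8 of 11 positive and 1 (Tcf7l2) rising. Endothelial markers summed to 213 to 277 CPM in WT and 180 to 235 CPM in Het, with 4 of 10 positive and 1 falling. Meningeal markers had a negative difference in 9 of 10, 1 of which fell, and summed to 200 to 246 CPM in WT and 116 to 299 CPM in Het. Choroid plexus markers were negative in 5 of 7 with none passing, and summed to 31.2 to 61.2 CPM in WT and 33.5 to 45.0 CPM in Het. Markers of oligodendrocyte precursors were positive in 7 of 8, 1 of which rose, and summed to 88.2 to 111 CPM in WT and 106 to 119 CPM in Het. Without the 2 libraries in doubt, 0 thalamic, endothelial, meningeal or precursor markers passed (limma). No marker tested in these lists was at 0 in any library. In the remaining lists, 1 of 10 astrocyte markers rose and 1 fell, and 1 rose and 0 fell without the 2 libraries in doubt. No marker of cortex and hippocampus, oligodendrocytes, microglia, tanycytes and ependyma, or pituitary passed in either setting. Of the 7 pituitary markers listed, only 2 were in the table and 1 was tested, so that list says little. The part of any of these markers in the rise of Gsk3b, Celsr2, Tcf7l2 and Fzd3 was not tested.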

How the data were processed

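RNA of 11 hypothalamus libraries (5 WT, 6 Het) was compared. Per the labels, it was extracted with a Zymo kit and made into libraries with the SMARTer Ultra Low RNA kit, and the submitters' processing notes name Trimmomatic, Bowtie2, STAR, HTSeq and build mm10, without versions. The authors deposited log2 CPM plus a small constant, after a correction called RUVr in the name of the deposited table. The sources used here do not state the raw depth, the factors removed or whether counting used strand.

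The lowest value of each column was taken as its floor, and after its subtraction on the linear scale 100% of values were multiples of a step fixed for each library, within 0.02 of a whole number. A step was 0.0417 to 0.0423 CPM. These steps give corrected counts, and their totals are the depths stated. Over 12150 genes, 1 direction across libraries had a singular value of 1.14, against 22.9 to 43.7 for the others, with correlations of 0.00021 with genotype and 0.00052 with sex. The correction therefore removed residual variation around both.

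Levels were back-transformed to CPM and tested on log2(CPM + 0.5), a scale that understates changes of low genes, since the planned test assumed CPM. Genes with a mean of at least 1 CPM (13184 of 14864) entered a linear model in limma 3.58.1 under R 4.3.3 (trend, genotype and sex as terms, and their product for the interaction), two-sided, with Benjamini-Hochberg adjustment over all of them at 0.05. The fit was tested on simulated data. Coordinates and exon lengths are from GENCODE M21 on mm10. Groups and replicate numbers follow the titles.

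The genes, pathway lists and marker lists were chosen with earlier results of these data known. Named pathway genes were those past the threshold, up to 4 per list, or otherwise the 2 with the smallest p-values. Predicted genes were left out of the most similar genes. Alternatives covered pseudocounts, the filter, scaling, the sex term, residual degrees of freedom, blocks, subsets of libraries, length and GC content, and limma voom on the corrected counts, which was chosen after seeing the data. Of the 11 choices of a left-out library, each was run.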

Additional observations from a re-analysis of the deposited data

Results flagged for a closer look

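Fzd7 in WT replicate 3 was 2.95 CPM, farther from the other 4 WT libraries than a 95% limit on a single extreme value allows. Those 4 had a mean of 0.786 ± 0.156 CPM (SD). Fzd1 in Het replicate 2 was 4.73 CPM, set apart in the same way from the other 5 Het libraries at 2.31 ± 0.179 CPM (SD). Both were found among 28 groups (14 genes in WT and Het), and chance marks about 1 group in 20.

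Ctnnb1 was marked because every Het female was above both WT females while every Het male was below all 3 WT males. The difference between the sexes in the genotype effect was 0.43 on the log2 scale (limma adjusted p = 0.982), and it ran from 0.40 to 0.48 over the 11 runs without 1 library, with adjusted p-values above the threshold in each.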

How the results depend on the processing

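None of the 9 tested genes passed for genotype under any alternative, and none for sex or for genotype by sex in the alternatives run for those. Pathway genes called beyond the set numbered 4. They numbered 2 with no sex term, with 1 residual degree of freedom taken off and without both doubted libraries, and 0 with the replicate block, within identifier prefix 14308 or 14309 (the number in each library's column name), in females only, in males only and after removing trends on length and GC, and 2 to 5 without 1 library. All genes called numbered 453. They numbered 200 with no sex term, 189 with 1 residual degree of freedom taken off, 300 with a block by identifier prefix, 46 with the replicate block, 6 and 16 within prefixes 14308 and 14309, 229 without both doubted libraries, 0 in females only (1981 at an unadjusted p under 0.05), 1 in males only and 160 after removing trends on length and GC, and 140 (without WT replicate 6) to 820 (without WT replicate 3) without 1 library, and it fell by over 1.5 times also without WT replicates 4 (219) and 7 (243) and Het replicates 2 (220), 4 (287), 8 (191) and 9 (180). With voom, chosen after seeing the data, it was 439. The split of 303 higher and 150 lower became 233 and 243 with libraries centred on their medians and 362 and 102 with quantile normalization.

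Signs turned only for values short of the threshold, and the cause was not tested. The replicate block was fitted with no sex term. With it, Ctnnb1 was at 0.083, Lrp6 at -0.21, Nkd1 at 0.0013, Rspo3 at 0.041, Sfrp5 at 0.068 and Tcf7 at -0.020. Without both doubted libraries, Ctnnb1 was at 0.0099 and Wnt7b at 0.11. In females only, Ctnnb1 was at 0.18, Fzd7 at 0.17, Rspo3 at 0.30, Wls at 0.018 and Wnt7b at 0.078, and in males only Dkk3 at 0.14, Lrp6 at -0.012, Myt1l at 0.18 and Wnt5a at -0.048. Within prefix 14308, Dkk3 was at 0.088, Lrp6 at -0.044, Wnt5a at -0.048 and Wnt7b at 0.15, and within prefix 14309 Fzd1 at 0.19, Fzd7 at 0.072, Myt1l at 0.31, Porcn at -0.014 and Wls at 0.0051. Quantile normalization put Dkk3 at 0.025 and Myt1l at 0.024, the prefix block Dkk3 at 0.037 and Wnt5a at -0.0078, and the length and GC adjustment Lrp6 at -0.11 and Wnt5a at -0.084. Without 1 library, ranges were -0.049 to 0.050 for Dkk3, -0.32 to 0.097 for Fzd7, -0.029 to 0.098 for Lrp6, -0.19 to 0.090 for Myt1l, -0.086 to 0.0098 for Wls, -0.027 to 0.13 for Wnt5a and -0.19 to 0.071 for Wnt7b.

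Replicate numbers 4 and 7 occur in both groups, and only they carry the replicate block. Replicate 7 sets a WT male against a Het female, and with no sex term this part of the block mixes genotype with sex. Deviations of same-numbered libraries from their group means had correlations of 0.13 and -0.09, which show no pairing but are too few to exclude it. By the labels, replicate 4 has prefix 14111 in WT and 14309 in Het. Replicate 7 has prefix 14308 in WT and 14309 in Het. The prefix block gives WT replicate 4 no weight. edgeR and DESeq2 were planned and not run, and limma voom on the corrected counts was run in their place. Depth limits Fzd7 and Lrp5, with 11 to 70 and 1 to 39 corrected counts per library.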
